A study of Mus musculus with 10 samples.

Results

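The MAP kinase phosphatases described here are 9 genes of the dual-specificity phosphatase (DUSP) family, Dusp1, Dusp2, Dusp4, Dusp5, Dusp6, Dusp8, Dusp10, Dusp14 and Dusp16. They were chosen by symbol among the 38922 genes measured in mouse liver, and all 9 were found. Their RNA was followed in male wildtype C57BL/6N mice, 6 weeks old, given a single intraperitoneal injection of saline or of 0.5 µg/g of an antibody that activates CD95 (CD95-Ab). CD95, also called Fas, is the death receptor through which hepatocytes are driven into apoptosis. Each group held 5 mice, all killed at 6 h, and each mouse gave its own library of whole-liver RNA. Neither group carried a genetic change. Depth per mouse was 25965699 to 62097636 counts with saline and 27480796 to 44962196 counts with CD95-Ab.

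Mitogen-activated protein (MAP) kinases are switched on by phosphorylation of a threonine and a tyrosine in the same loop, and a DUSP switches them off by removing both phosphates. Many DUSP genes are themselves transcribed in response to the kinases that their proteins inactivate, which makes the family a negative feedback arm of growth factor, cytokine and stress signalling. In the liver, JNK, p38 and ERK, the main MAP kinases, take part in the response to death receptors and in regeneration. Dusp1, Dusp2, Dusp4 and Dusp5 encode inducible nuclear enzymes, and DUSP5 acts on ERK. Dusp6 encodes a cytoplasmic ERK phosphatase. Dusp8, Dusp10 and Dusp16 encode enzymes that prefer JNK and p38. Dusp14 encodes a small atypical member without the docking domain of the others.

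The RNA of 7 of the 9 phosphatases rose after CD95-Ab, and none fell. Of all genes tested, 25.4% rose and 22% fell. Dusp5 rose 27.9-fold, Dusp8 19.5-fold and Dusp2 14.7-fold, from mean levels between 0.548 and 1.35 CPM (counts scaled to a common total). Dusp4, Dusp10, Dusp16 and Dusp6 rose between 2.73-fold and 4.84-fold. Dusp1, the most abundant of the family in saline-injected livers, and Dusp14, the scarcest after CD95-Ab, did not pass the test.

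The promoters of Dusp1, Dusp5 and Dusp8 are shown because they hold a full motif for a signal-dependent transcription factor, among the 8 promoters matched in RefSeq (GRCm38.p6). Each is the sense strand from 250 to 51 bases before the start of the gene in RefSeq, and capitals mark the motif. The GENCODE models of Dusp1, Dusp8, Dusp10 and Dusp14 begin further upstream, so these windows lie inside the positions given for those genes below. In Dusp1 and Dusp8 it is the cAMP response element (CRE), TGACGTCA. In Dusp5 it is a pair of adjacent CArG boxes, the motif of serum response factor.
Dusp1, chr17:26508523-26508722, minus strand: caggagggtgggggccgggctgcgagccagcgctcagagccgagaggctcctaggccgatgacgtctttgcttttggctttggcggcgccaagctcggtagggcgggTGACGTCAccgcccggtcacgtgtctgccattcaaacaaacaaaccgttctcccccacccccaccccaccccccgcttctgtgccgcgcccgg
Dusp5, chr19:53528895-53529094, plus strand: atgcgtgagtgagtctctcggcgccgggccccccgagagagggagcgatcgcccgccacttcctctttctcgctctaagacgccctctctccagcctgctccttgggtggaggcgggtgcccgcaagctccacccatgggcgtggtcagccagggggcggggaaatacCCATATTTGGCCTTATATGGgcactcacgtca
Dusp8, chr7:142095335-142095534, minus strand: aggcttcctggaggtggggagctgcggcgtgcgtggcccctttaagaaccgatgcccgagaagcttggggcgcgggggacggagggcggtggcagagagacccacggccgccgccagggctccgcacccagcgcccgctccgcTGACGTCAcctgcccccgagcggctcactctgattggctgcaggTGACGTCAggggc
The CRE of Dusp1 lay 143 to 136 bases before the start. Those of Dusp8 lay 107 to 100 and 63 to 56 bases before it. The CArG boxes of Dusp5 spanned bases 82 to 73 and 72 to 63. Searched on both strands, a CRE was present in 0.828% and a CArG box in 1.16% of 32851 promoters of the same length. The core TGACG of the CRE, which every full CRE also contains, was present in 12.7% of them and was further found in Dusp1 (191 to 187), Dusp5 (55 to 51) and Dusp16 (70 to 66). The AP-1 motif TGANTCA (5.57% of promoters) and the NF-kB motif (3.13%) were absent from all 8 windows, and those of Dusp2, Dusp6, Dusp10 and Dusp14 held no match. The Dusp5 window lies within exons annotated to AC137853.2 on the opposite strand. GENCODE exons also cover 171 of the 200 bases of the Dusp10 window and 100 of those of Dusp14, and none of those of the other 5. A match says only that the letters are there. Dusp1 and Dusp8 each hold a full CRE, and their log2 fold changes were 0.53 and 4.28.

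Levels are given as CPM, counts scaled to a total of 1000000 after TMM adjustment of the library totals. A gene was called at a Benjamini-Hochberg adjusted p (FDR) of 0.05 or less in the quasi-likelihood test of edgeR, fitted to all 13719 genes with enough counts. All 9 phosphatases were among these. Much of the transcriptome differed between the groups, and 47.3% of tested genes were called. As shares of tested genes, 25.4% were higher and 22% lower. Against that background 7 of 9 phosphatases were called higher, each of them with no overlap between the groups, which held for 18.6% of tested genes in that direction. Past a log2 fold change of 2, the additional threshold of the study, 4 of 9 were called, against 6.59% of tested genes. These 4, Dusp2, Dusp4, Dusp5 and Dusp8, also stand on the study's own list of induced genes, which was drawn from these same mice and adds no independent evidence. The median log2 fold change was 1.93 over the 9 phosphatases and 0.01 over all tested genes.

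**Figure D1:**
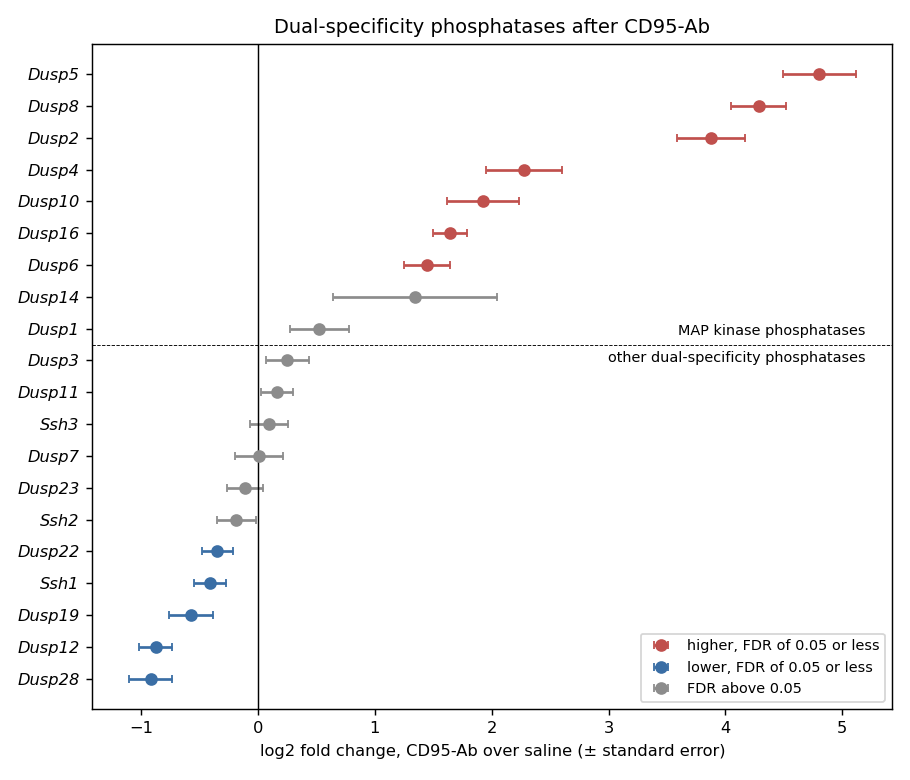
Log2 fold change after CD95-Ab over saline with its standard error from the edgeR fit (5 mice per group), for the 9 MAP kinase phosphatases above the dashed line and 11 other dual-specificity phosphatases below it, with called genes in red (higher) or blue (lower) and the rest in grey. The 9 run from 0.53 for Dusp1 to 4.80 for Dusp5, with Dusp1 and Dusp14 in grey. The other 11, which include the ERK phosphatase Dusp7, hold 5 blue and no red points.

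Of the inducible nuclear phosphatases, Dusp5 (ENSMUSG00000034765, chr19:53529109-53542431, plus strand) changed most. Positions are those of GRCm38 in GENCODE M21. In saline-injected mice 1 to 5 it stood at 1.53, 1.33, 0.902, 1.19 and 1.78 CPM, and in CD95-Ab mice 1 to 5 at 23.9, 44.7, 62.8, 34.8 and 24.8 CPM. Every treated liver was far above every control, and the treated livers differed among themselves more than the controls did. The log2 fold change was 4.80 ± 0.31 (SE, n = 5 mice per group, edgeR FDR = 7.77e-07), and 0.831% of tested genes had a larger one. The 3 genes whose profile over the 10 mice was nearest to that of Dusp5 were Hbegf, encoding a ligand of the EGF receptor, Timp1, encoding an inhibitor of matrix metalloproteinases, and Apold1. Their root mean square differences from Dusp5, on log2 CPM centred on the saline mean, were 0.26, 0.28 and 0.31.

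Dusp2 (ENSMUSG00000027368, chr2:127336159-127338376, plus strand), which encodes a nuclear phosphatase known mainly from activated immune cells, was at 0.706, 0.445, 0.282, 0.808 and 0.501 CPM in the saline-injected mice. These levels rested on 10 to 30 counts per mouse. After CD95-Ab it was at 6.45, 6.85, 8.04, 12.0 and 6.86 CPM in mice 1 to 5, and replicate 4 stood apart from the other 4. The groups were far from overlapping, with a log2 fold change of 3.88 ± 0.29 (SE, n = 5 mice per group, edgeR FDR = 1.89e-06). Dusp4 (ENSMUSG00000031530, chr8:34807297-34819894, plus strand), whose nuclear product acts on ERK and JNK, was at 1.51, 1.22, 2.40, 1.81 and 2.43 CPM in the controls and at 6.84, 11.1, 15.2, 4.32 and 8.04 CPM after CD95-Ab. Replicate 4, the highest for Dusp2, was the lowest of the treated livers for Dusp4, but still above every control. The log2 fold change of Dusp4 was 2.27 ± 0.33 (SE, edgeR FDR = 0.000163).

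Dusp1 (ENSMUSG00000024190, chr17:26505590-26562128, minus strand) encodes MKP-1, an early-response phosphatase of p38 and JNK. It was already high in the saline-injected livers, at 80.5, 130, 93.8, 158 and 141 CPM. After CD95-Ab it was at 96.9, 174, 240, 215 and 141 CPM, and 3 of the 5 treated livers were above the highest control. The groups overlapped and Dusp1 was not called, at a log2 fold change of 0.53 ± 0.25 (SE, edgeR FDR = 0.109). The call turned on a single liver. Without CD95-Ab replicate 1, the lowest of the treated mice, the log2 fold change was 0.68 and the edgeR FDR 0.0309, whereas leaving out any other mouse gave an FDR between 0.0901 and 0.263. The annotated gene overlaps 4 others, of which 2 lie on its own strand. Among the 4 is Ergic1, at 47.4 CPM in controls and 40.3 CPM after CD95-Ab (edgeR FDR = 0.175). The genes with the nearest profile to Dusp1 were Gpsm1, Bok and Zfp691, with root mean square differences of 0.23, 0.23 and 0.24.

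**Figure D2:**
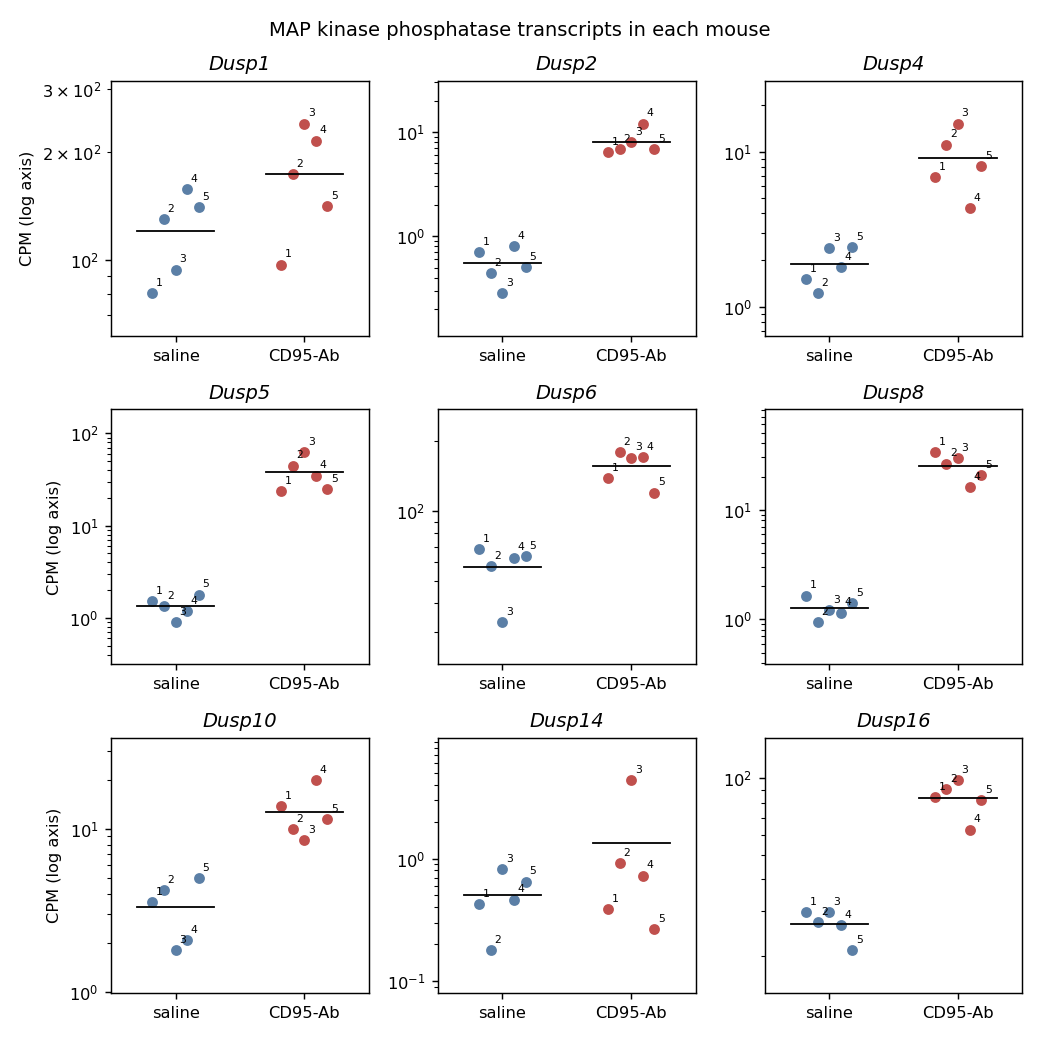
CPM of each phosphatase in every mouse on a log axis, with a numbered point per mouse (blue for saline, red for CD95-Ab) and a line at each group mean. All 5 treated mice lie above all 5 controls in 7 of the 9 panels, as they do for 18.6% of all tested genes. The groups overlap for Dusp1 and for Dusp14, where CD95-Ab replicate 3 is at 4.34 CPM.

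Dusp6 (ENSMUSG00000019960, chr10:99263231-99267489, plus strand), encoding the cytoplasmic ERK phosphatase MKP-3, rose from a higher starting level. The controls held 68.3, 58.0, 33.2, 62.9 and 63.8 CPM and the treated livers 139, 180, 170, 171 and 120 CPM. The groups did not overlap. The log2 fold change was 1.45 ± 0.20 (SE, n = 5 mice per group, edgeR FDR = 0.000108). Cks1b, Micall2 and Unc13d had the nearest profiles, at root mean square differences of 0.18, 0.23 and 0.24. The other cytoplasmic ERK phosphatases, Dusp7 and Dusp9, were not among the 9. They are given here after their values were seen. Dusp7 was at 2.24 ± 0.248 CPM (SD, n = 5) in controls and 2.25 ± 0.611 CPM (SD, n = 5) after CD95-Ab, a log2 fold change of 0.01 ± 0.21 (SE). Dusp9 had too few counts to be tested.

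Among the phosphatases that prefer JNK and p38, Dusp8 (ENSMUSG00000037887, chr7:142079490-142095843, minus strand) rose most. It was at 1.65, 0.949, 1.21, 1.15 and 1.41 CPM in the controls and at 33.4, 26.2, 29.3, 16.1 and 20.4 CPM after CD95-Ab. Every treated liver was well above every control, and the controls rested on 30 to 76 counts each. The log2 fold change was 4.28 ± 0.23 (SE, n = 5 mice per group, edgeR FDR = 3.24e-07), and 1.19% of tested genes had a larger one. Dusp16 (ENSMUSG00000030203, chr6:134715468-134792625, minus strand), encoding MKP-7, was at 29.8, 27.1, 29.7, 26.5 and 21.0 CPM in the controls and at 84.5, 90.7, 98.0, 62.8 and 82.2 CPM after CD95-Ab. It had the smallest standard error of the 9 genes, with a log2 fold change of 1.64 ± 0.15 (SE, edgeR FDR = 4.96e-06). Its nearest profiles were those of Dnajc27, Emilin1 and Frmd6, at root mean square differences of 0.12, 0.13 and 0.14. Dusp10 (ENSMUSG00000039384, chr1:184013302-184075636, plus strand), encoding MKP-5, was at 3.55, 4.21, 1.80, 2.08 and 5.01 CPM in the controls and at 13.9, 10.03, 8.56, 19.8 and 11.5 CPM after CD95-Ab. Its groups did not overlap either, and the log2 fold change was 1.93 ± 0.31 (SE, edgeR FDR = 0.000362). It crossed a log2 fold change of 2 only when saline replicate 2 or 5 or CD95-Ab replicate 2 or 3 was left out (2.00 to 2.12).

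Dusp14 (ENSMUSG00000018648, chr11:84048041-84069261, minus strand) was scarce in both groups. The controls held 0.423, 0.178, 0.817, 0.462 and 0.649 CPM, from 6 to 35 counts. The treated livers held 0.385, 0.924, 4.34, 0.727 and 0.266 CPM, and a single liver, replicate 3, accounted for most of the group mean of 1.33 ± 1.70 CPM (SD, n = 5). The log2 fold change was 1.34 ± 0.71 (SE, edgeR FDR = 0.136), and without CD95-Ab replicate 3 it was 0.14 (FDR = 0.829).

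Levels of different genes were compared per transcript length, on the FPKM values that the authors deposited. In the saline-injected livers Dusp1 was the most abundant phosphatase at 68.7 ± 17.2 FPKM (SD, n = 5), followed by Dusp6 at 21.6 ± 5.78 FPKM and Dusp16 at 5.60 ± 1.21 FPKM. The ranges of these 3 overlapped neither each other nor the next gene. Below them stood Dusp10, Dusp4, Dusp5, Dusp2, Dusp14 and Dusp8, from 1.25 ± 0.496 FPKM down to 0.286 ± 0.0658 FPKM, and each range overlapped the next. After CD95-Ab, Dusp1 was at 91.2 ± 21.0 FPKM and Dusp6 at 55.1 ± 7.82 FPKM, with overlapping ranges although Dusp1 was above Dusp6 in 5 of 5 mice. Dusp16 at 17.2 ± 3.63 FPKM and Dusp5 at 15.1 ± 5.55 FPKM also overlapped, and a gap then separated them from Dusp2, Dusp8, Dusp10, Dusp4 and Dusp14, which ran from 5.32 ± 1.02 FPKM to 0.896 ± 1.10 FPKM with each range overlapping the next.

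**Figure D3:**
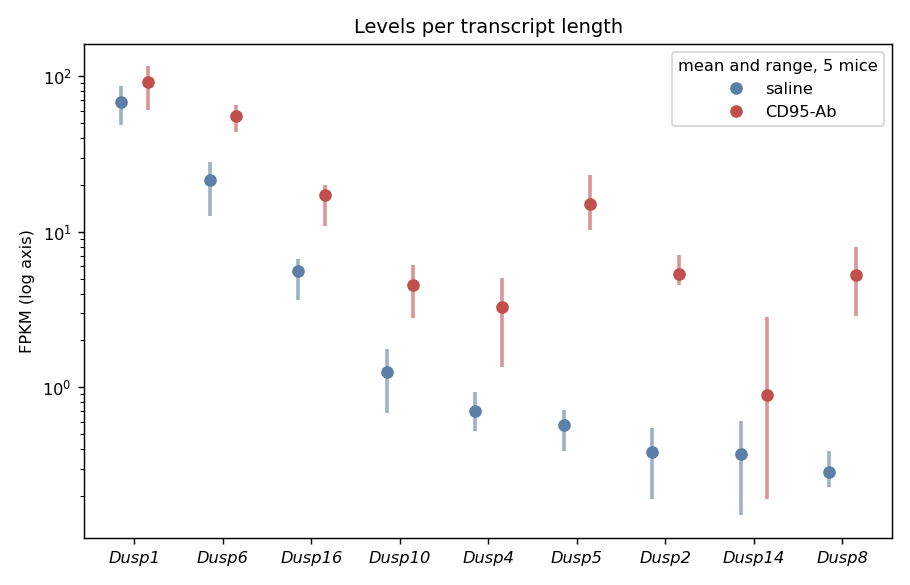
FPKM of each phosphatase on a log axis, ordered by the mean in saline-injected livers, with a point at each group mean and a vertical line over the range of its 5 mice. Dusp5 moved from place 6 to place 4 in the order and Dusp8 from place 9 to place 6, and Dusp1 had the highest mean in both groups.

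The summed level of the 9 genes was 99.5 ± 18.7 FPKM (SD, n = 5) in controls and 197.8 ± 27.8 FPKM (SD, n = 5) after CD95-Ab. Dusp1 made up 68.6% ± 7.29 of the sum in the controls and 45.8% ± 6.62 after CD95-Ab. The share of Dusp6 was 21.8% and 28.1%, that of Dusp16 5.84% and 8.82%, and that of Dusp5 0.586% and 7.44%. These shares are descriptions of the sum and were not tested.

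To ask whether phosphatases of related specificity moved by different amounts, the ratio of counts within each mouse was compared for 3 pairs. Dusp5 encodes a nuclear and Dusp6 a cytoplasmic ERK phosphatase. The log2 ratio of Dusp5 to Dusp6 was between -5.70 and -5.16 in controls and between -2.54 and -1.44 after CD95-Ab. Its mean was 3.27 higher after CD95-Ab, with no overlap (exact permutation test, two-sided, p = 0.00794, adjusted over the 3 ratios 0.0119, n = 5 mice per group). The log2 ratio of Dusp8 to Dusp16 was between -4.82 and -3.89 in controls and between -2.01 and -1.34 after CD95-Ab. It was 2.63 higher (exact permutation test, p = 0.00794, adjusted 0.0119). That p is the smallest that 5 mice against 5 can give. The log2 ratio of Dusp1 to Dusp10 was 5.24 ± 0.71 (SD, n = 5) in controls and 3.76 ± 0.75 (SD, n = 5) after CD95-Ab. It fell by 1.48 (exact permutation test, p = 0.0159, adjusted 0.0159) although the groups overlapped. In each of the 3 pairs the member that was scarcer in controls gained on the more abundant one.

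**Figure D4:**
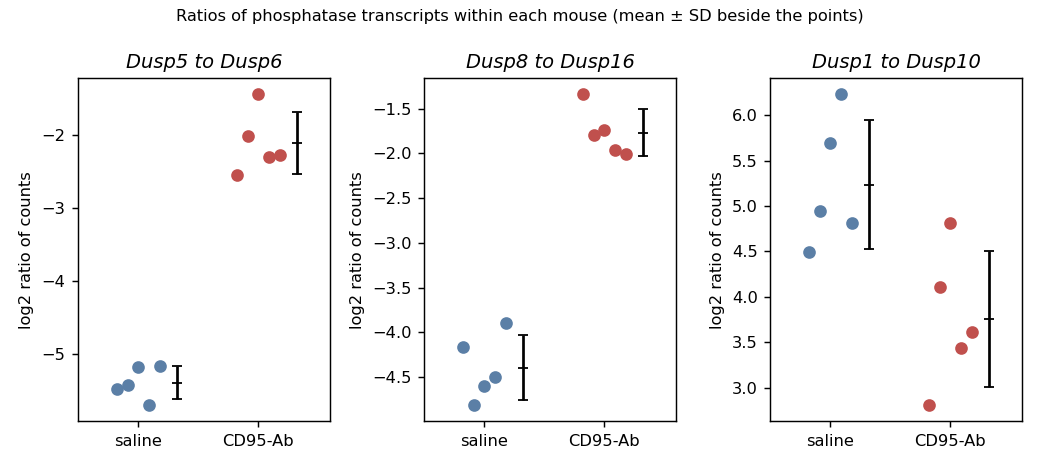
Log2 ratio of counts within each mouse for Dusp5 to Dusp6, Dusp8 to Dusp16 and Dusp1 to Dusp10, with a point per mouse and a bar beside the points for the mean ± SD (n = 5). The 5 treated mice lie above the 5 controls for the first pair of genes (difference 3.27) and the second (2.63), and 4 of the 5 lie below all controls for Dusp1 to Dusp10 (difference -1.48).

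On a list of other dual-specificity phosphatases, no tested gene was called higher. It includes the ERK phosphatases Dusp7 and Dusp9, so it is not free of MAP kinase phosphatases. Of the 19 genes on that list, 11 had enough counts to be tested, 5 were called lower and 6 were not called, with a median log2 fold change of -0.19. Among all tested genes 22% were called lower. Dusp28 (log2 fold change -0.92, edgeR FDR = 0.00173) and Dusp12 (-0.87, FDR = 0.000357) fell under every alternative tried. The falls of Dusp19 (-0.57, FDR = 0.0260), Ssh1 (-0.41, FDR = 0.0251), which encodes a phosphatase of cofilin, and Dusp22 (-0.35, FDR = 0.0462) were close to the threshold. With a single mouse left out, the number called was 2 without saline replicate 1 or 2, 3 without saline replicate 3 or CD95-Ab replicate 2, and 4 or 5 without any other mouse. The 9 MAP kinase phosphatases and this list were not tested against each other.

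Of 12 MAP kinase genes tested, 4 were called higher and 2 lower, with a median log2 fold change of -0.04. Among all tested genes 25.4% were called higher and 22% lower, so the share called in these lists of kinases is to be read against 47.3%. Mapk13, encoding p38δ and named here after its values were seen, was scarce, with controls at 0.142 CPM, and rose by the most (2.50, edgeR FDR = 0.00124). With at most 11 counts in any control, it had enough counts to be tested only through the treated mice. With a mean of at least 1 CPM, those called higher were Mapk7, encoding ERK5 (1.40, edgeR FDR = 0.000438), Mapk6, encoding ERK3 (1.05, FDR = 1.35e-05), and Mapk11, encoding p38β (0.98, FDR = 0.0357). The call of Mapk11 was lost without saline replicate 1, 2 or 4 or CD95-Ab replicate 2, 3 or 4 (0.71 to 1.02). Those called lower, also named after their values were seen, were Mapk9, encoding JNK2 (-0.38, edgeR FDR = 0.0120), and Mapk3, encoding ERK1 (-0.31, FDR = 0.0216). Of the 7 MAP kinase kinases, Map2k1, encoding the ERK activator MEK1, was called higher (0.56, FDR = 0.00291), and Map2k5 (-0.60, FDR = 0.00672) and Map2k6, encoding an activator of p38 (-2.81, FDR = 0.000124), were called lower. Map2k6 fell from 4.70 ± 1.55 to 0.681 ± 0.449 CPM (SD, n = 5). Of 17 kinases a step further up (MAP3 kinases) 6 were called higher and 0 lower, and 10 were called without CD95-Ab replicate 4. The leading ones were Map3k8, encoding the ERK pathway kinase TPL2 (2.58, FDR = 2.57e-05), Map3k6 (2.35, FDR = 0.00140) and Map3k14, encoding the NF-kB inducing kinase (2.31, FDR = 5.24e-06).

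For regulators and target genes of the MAP kinases the share to compare with is again 25.4% of all tested genes called higher. Of 9 further feedback regulators of ERK signalling, 4 were called higher and 0 lower, with a median log2 fold change of 0.83. Ier3 rose most (5.62, edgeR FDR = 5.71e-06), from 1.25 to 63.1 CPM. Its product is a target of ERK known to prolong ERK phosphorylation, unlike the inhibitors it was listed with, and without it 3 of 8 were called higher. The receptor tyrosine kinase inhibitors Spry2 (3.18, FDR = 3.91e-05) and Spry4 (2.39, FDR = 6.21e-05) followed, while Errfi1, an inhibitor of the EGF receptor, was not called at 975 and 1241 CPM. Of 16 tested genes for transcription factors that depend on MAP kinases, 13 were called higher and 0 lower, with a median of 1.63. Fosl1 (6.69, FDR = 1.35e-06) had at most 4 counts in any saline-injected mouse, and enough to be tested only through the treated mice. Atf3 (4.31, FDR = 0.000151) and Egr2 (4.01, FDR = 0.000114) were next. Fos was not called (1.55, FDR = 0.134), with controls between 6.37 and 156 CPM, and without saline replicate 2 it was at 2.82 (FDR = 0.00545). Of 13 kinases activated by MAP kinases and mRNA decay factors, 7 were called higher and 0 lower. They were led by Rps6ka2 (1.78, FDR = 0.000354) and the decay factor genes Zfp36 (1.73, FDR = 0.00254) and Zfp36l1 (1.595, FDR = 0.000155), with Mknk2 not called (0.17, FDR = 0.524).

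**Figure D5:**
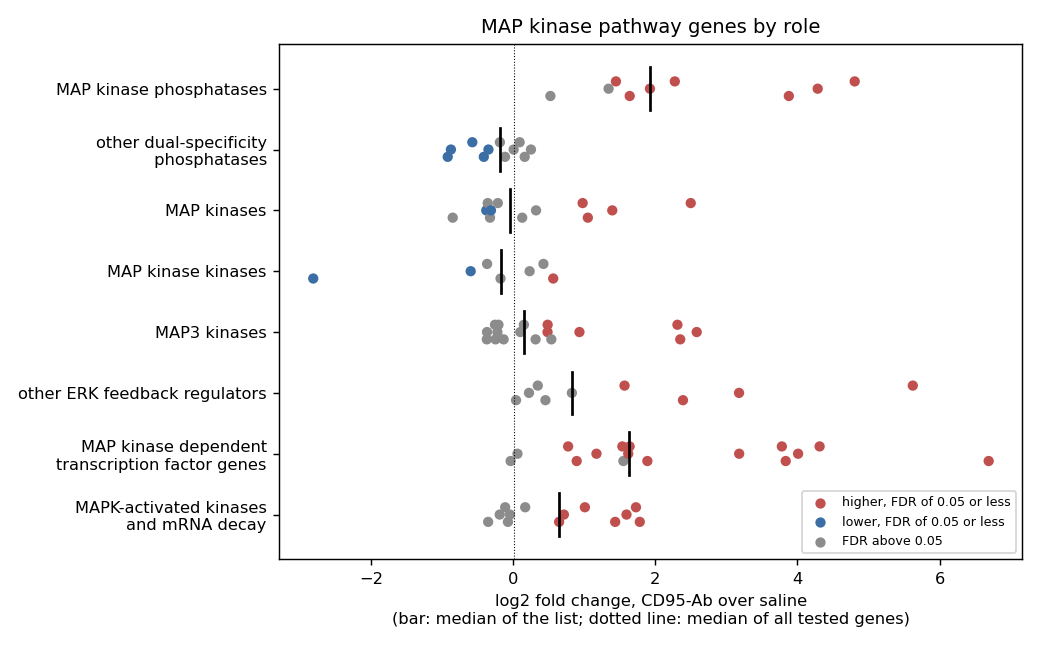
Log2 fold change of every tested gene of the MAP kinase phosphatases, the other dual-specificity phosphatases and 6 further lists of the pathway, with a point per gene (red or blue where called higher or lower, grey otherwise), a bar at the median of each list and a dotted line at the median of all tested genes (0.01). The medians are 1.93 for the 9 MAP kinase phosphatases, 1.63 for the transcription factor genes and -0.19 for the other dual-specificity phosphatases. The list of other dual-specificity phosphatases includes the ERK phosphatase Dusp7.

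In whole liver, more cells of a type and more RNA per cell cannot be told apart, and markers of several cell types moved with the phosphatases. The counts of markers called are to be read against 25.4% of all tested genes called higher and 22% called lower. Hepatocyte markers, at a summed 97768 to 123816 CPM in controls and 42237 to 80064 CPM after CD95-Ab, were called lower for 4 of 7. Their sum was carried by Alb (mean 84727 CPM in controls and 41434 CPM after CD95-Ab). Apoa1 (log2 fold change -0.39), Cps1 (-0.72) and Tat (0.31) were not called. Neutrophil markers were called higher for 7 of 7 tested, at a summed 4.19 to 10.8 CPM in controls and 110 to 465 CPM after CD95-Ab. Of these, Ngp (at most 7 counts in any control) and Mmp8 (at most 18) had enough counts to be tested only through the treated mice. Ly6g, Camp and Ltf had too few counts to be tested. Endothelial markers (5 of 6 higher, 42.6 to 107 CPM and 141 to 269 CPM), stellate cell markers (3 of 6 higher, 1 lower) and T and NK cell markers (6 of 8 higher, 1.66 to 6.89 CPM and 8.68 to 13.6 CPM) did not overlap in summed level. Of the endothelial markers Lyve1 rose most (means of 6.72 and 71.7 CPM), and Kdr was not called. Dcn made up most of the stellate cell sum (means of 87.0 and 251 CPM). Hand2 was the stellate cell marker called lower (log2 fold change -2.06), and Lrat and Col1a1 were not called. Of the cholangiocyte markers 3 of 4 were higher, but their sum was carried by Sox9 (1.91 and 58.4 CPM), and without it the sums overlapped, at 0.741 to 2.65 CPM in controls and 2.55 to 13.8 CPM after CD95-Ab. Those of Kupffer cells (3 of 8 higher) and B cells (3 of 4 higher) did overlap. Erythroid markers (5 of 5 higher) ran from 1064 to 33995 CPM after CD95-Ab, against 135 to 323 CPM in controls. CD95-Ab replicate 4, the highest for Dusp2 and Dusp10, held the highest summed B cell markers at 13.6 CPM, with the other treated mice at 2.28 to 6.51 CPM, and the lowest Kupffer cell, stellate cell and T and NK cell sums of the treated mice. CD95-Ab replicate 3, the highest for Dusp1, Dusp4, Dusp5, Dusp14 and Dusp16, held the highest neutrophil, endothelial, stellate cell, cholangiocyte and erythroid sums, and also the highest hepatocyte sum of the treated mice (80064 CPM). The part of these cells in the levels of the phosphatases was not tested.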

How the data were processed

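Whole-liver RNA of 10 mice, 5 injected with saline and 5 with CD95-Ab, had been sequenced from 500 ng per mouse with TruSeq reagents and paired reads of 100 bp. Groups and replicate numbers were taken from the sample labels. The authors assigned reads to genes with RSEM 1.2.19 and deposited expected counts and FPKM values for each mouse. The expected counts deposited by the authors were whole numbers and unnormalized. The FPKM values deposited by the authors are scaled for transcript length and library total, and served here only for the order and shares of levels between genes. RSEM can share out reads that match several genes, but how such reads entered the whole-number counts is not stated. Strand was not stated either. Reads of a gene and of one overlapping it on the opposite strand (for Dusp1, Dusp5, Dusp8, Dusp10 and Dusp16) may thus not be separated. For the assignment of reads the paper names a human Gencode release, whereas the deposited identifiers are mouse Ensembl identifiers. The genome build and mouse annotation are not given in the sources used here.

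Symbols (37606 of 38922 identifiers) and positions came from GENCODE M21 (GRCm38), and promoters from RefSeq (8 of 9 members matched). Genes kept by filterByExpr (minimum count 10) were scaled by TMM and compared with the edgeR 4.0.16 quasi-likelihood test (R 4.3.3, limma 3.58.1), with group as the only term and Benjamini-Hochberg adjustment. The standard error was derived from the F statistic. Ratios used counts plus 0.5 and exact permutation in Python 3.11.15 (pandas 2.3.3, scipy 1.17.1). The same code was tested on simulated data in which 200 of 13570 genes were shifted by 3 on the log2 scale, of which 95% were recovered, and 4.04% of calls were unchanged genes. That simulation does not show how the code performs where 47.3% of genes are called, or for smaller changes. Over the mice, 3 counts are worth 0.0556 to 0.121 CPM on the TMM scale, a floor that covers counting error only. The p-values set the difference between the groups against the spread between mice.

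The members, gene lists and tests were chosen with earlier results of these data known. Named were all 9 members, every called gene among the other dual-specificity phosphatases, and for each further pathway list the 3 called genes with the largest change among those of at least 1 CPM and the most abundant uncalled gene, of which some are not reported here. Nearest profiles were named for the 4 members with the highest CPM after CD95-Ab. Alternatives were DESeq2 1.42.0, the likelihood ratio test of edgeR, other scaling factors and filters, a replicate block, an FDR of 0.01 and each mouse left out. For ratios and orders of levels they were another pseudocount, FPKM and CPM per kilobase. The paper's other assays were not analysed here.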

Additional observations from a re-analysis of the deposited data

Results flagged for a closer look

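Among 24 groups of 5 mice examined for a mouse far from the others, 2 values among the phosphatases stood apart, and chance alone gives about 1 in 20 groups. Dusp2 was at 12.0 CPM in CD95-Ab replicate 4, against 6.45 to 8.04 CPM in the other treated mice. Dusp14 was at 4.34 CPM in CD95-Ab replicate 3, against 0.266 to 0.924 CPM in the other treated mice. In both cases the cause was not tested.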

How the results depend on the processing

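The number of phosphatases called was 7 under DESeq2, the likelihood ratio test, 3 other scalings, 2 other filters, the replicate block and an FDR of 0.01, and 7 to 8 with a mouse left out. The number past a log2 fold change of 2 was 4 under the same alternatives and 4 to 5 with a mouse left out. Over all tested genes the count called was 6495, 7565 with DESeq2, 5987 with the replicate block, 4492 at an FDR of 0.01 and 5616 to 6977 with a mouse left out. Of these calls 53.6% were higher, but 46.8% with upper quartile factors and 47.0% with no factors. Of the other dual-specificity phosphatases 2 were called with the block or at an FDR of 0.01, and of the MAP kinases 3 at an FDR of 0.01. With a mouse left out, the difference in log2 ratio was 3.11 to 3.38 for Dusp5 to Dusp6, 2.52 to 2.75 for Dusp8 to Dusp16 and -1.74 to -1.23 for Dusp1 to Dusp10. Taken as pairs by replicate number, the same differences of 3.27, 2.63 and -1.48 each gave an exact sign-flip p of 0.0625, the smallest that 5 pairs allow, so that this pairing cannot pass the threshold. Deviations of same-numbered mice correlated between -0.274 and 0.257 (mean 0.037), against a mean of -0.006 for mice of different numbers. The best match was the mouse of the same number for replicates 1 and 3 only. So few correlations cannot decide whether the numbers mark pairs or a shared batch. With the block, Fos was called (2.69, edgeR FDR = 0.00951), Dusp19, Dusp22 and Ssh1 were not, and no other gene named by the stated rule changed its call. Of the MAP kinases 5 were called with the block. Dusp22 kept its call in 6 of 19 alternatives. Dusp14 was not tested where at least 10 counts were required in every mouse. Counts of 10 to 30 per control for Dusp2 and 6 to 35 for Dusp14 limit their precision. The count of ERK feedback regulators without Ier3 was chosen after seeing the data.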
